A study of Mus musculus with 4 samples.

Results

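The 10 genes of the osteoclast and of the RANK system described here, of 24421 rows in the count table, were measured in mouse knee cartilage. They were taken by name: 7 genes that mark osteoclasts (Acp5, Calcr, Ocstamp, Dcstamp, Oscar, Atp6v0d2 and Nfatc1) and the receptor, ligand and decoy of the RANK system (Tnfrsf11a, Tnfsf11 and Tnfrsf11b). The tissue was the superficial zone of articular cartilage of the medial femoral condyle of C57BL/6J mice, collected 8 weeks after the operation. Each of 2 mice, M04 and M05, gave a knee in which the medial meniscus was surgically destabilized (DMM), a model of osteoarthritis, and a sham-operated knee, so that there were 4 libraries, 2 per group. Wild type is the genotype in the labels of both mice, while the series' design text calls M05 a knockout without naming a gene. Differences between the mice are therefore differences between 2 animals, and nothing in the labels gives their age.

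Osteoclasts are multinucleated cells that dissolve bone and mineralised cartilage, and they arise by fusion of precursors of the monocyte lineage. RANKL, on osteoblast-lineage cells, hypertrophic chondrocytes and some lymphocytes, binds the receptor RANK on the precursors and drives this differentiation through NFATc1, while osteoprotegerin is a secreted decoy that catches RANKL. In osteoarthritis the system is known mainly from the bone and calcified cartilage below the joint surface.

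Total counts were 12712425 to 19336628 per library. Levels are given as CPM, each gene's share of the library's counts on a scale common to all libraries, adjusted between libraries by TMM, the trimmed mean of M-values. The 10 chondrocyte markers summed to 4857 CPM in the sham and 5696 CPM in the DMM library of M04, and to 1246 and 4209 CPM in those of M05, so the sham library of M05 had the lowest sum of the 4. Markers of red-cell precursors summed to between 102700 and 174600 CPM, and 12 macrophage and monocyte markers, none of them at 0, to between 4418 and 5795 CPM. In such bulk RNA, fewer cells of a type and less RNA per cell cannot be told apart.

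None of the osteoclast or RANK system genes changed between DMM and sham knees past the threshold of an adjusted p of 0.05. Of the 10, 9 were tested, and edgeR's quasi-likelihood test with the mouse as a block called 0 of them, against 0.649% of the 13103 genes tested. At an unadjusted p under 0.05, 0 of the 9 passed as well, against 5.20% of all genes tested. DESeq2 called 0 of 9 and limma on FPKM 0 of 10, and neither had a member under an unadjusted p of 0.05. With edgeR scaled by total count only, 1 member was, Acp5 at a log2 fold change of 0.37 (edgeR unadjusted p = 0.0321, adjusted p = 0.759). That scaling moved the median of all genes by 0.11. The gene not tested, Calcr, did not reach the minimum count, although all 10 were counted in every library. The median log2 fold change of the 9 was 0.20, and the median over all genes tested was -0.01. Of the 9, 6 were above 0, as were 6270 of the 13103 genes tested, and 9 genes are too few to read against that share. The standard errors and intervals of the fold changes below rest, for 8 of the 9, on the trend across genes, and do not measure how far the 2 mice differ.

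**Figure D1:**
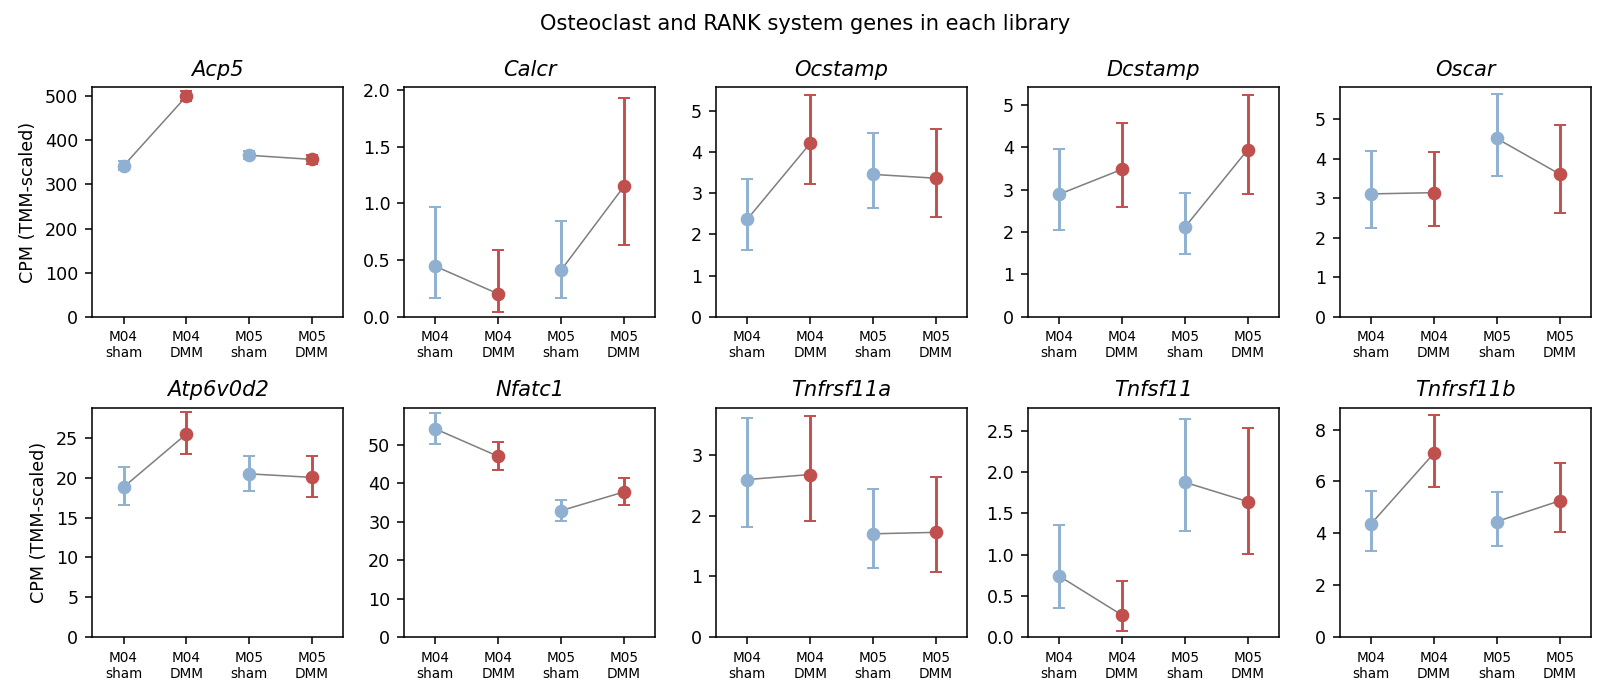
Level of each of the 10 genes in the 4 libraries, in CPM after TMM scaling. Points are libraries, blue for sham and red for DMM, grey lines join the knees of a mouse, and bars are 95% Poisson intervals, which cover counting error only. Acp5, Ocstamp, Atp6v0d2, Tnfrsf11b and, narrowly, Tnfrsf11a were highest in the DMM library of M04. Tnfsf11 was higher in both libraries of M05 than in those of M04.

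Compared per length, as FPKM, which divide by transcript length and depth, Acp5 stood far above the others. Its mean was 338 FPKM (SD 62.9, n = 4 libraries), 33.7 times that of the next gene, Nfatc1, at 10.04 FPKM (SD 2.29). Atp6v0d2 followed at 9.25 FPKM (SD 1.25), and its range over the libraries overlapped that of Nfatc1. Next came Oscar at 2.22, Tnfrsf11b at 1.97, Ocstamp at 1.91 and Dcstamp at 1.77 FPKM, whose ranges also overlapped each other from neighbour to neighbour. The lowest were Tnfsf11 at 0.560, Tnfrsf11a at 0.443 and Calcr at 0.170 FPKM, again with overlapping neighbours. In CPM, which are not corrected for length, Acp5 held 80.7% to 85.7% of the sum of the 7 osteoclast genes, so that a summed osteoclast level would mostly repeat Acp5.

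The effector genes Acp5 and Atp6v0d2 had higher values in the DMM than in the sham knee of M04 and nearly level ones in M05. Acp5, which encodes tartrate-resistant acid phosphatase, the classical histochemical marker of osteoclasts that some macrophages also make, was at 342 CPM in the sham and 500.2 CPM in the DMM knee of M04, and at 366 and 357 CPM in M05. Only the DMM library of M04 stood apart, and the sham and DMM values overlapped. The log2 fold change was 0.26 (SE 0.16, 95% interval -0.05 to 0.56, edgeR adjusted p = 1.0), and it was 0.01 when the DMM library of M04 was left out and 0.49 when that of M05 was, in fits with no mouse term. Atp6v0d2, a subunit of the osteoclast proton pump that also takes part in precursor fusion, was at 18.8 and 25.5 CPM in the sham and DMM knees of M04 and at 20.5 and 20.0 CPM in those of M05. Its log2 fold change was 0.20 (SE 0.20, interval -0.19 to 0.60). It was 0.03 without the DMM library of M04 and 0.37 without that of M05. The pattern of the 4 libraries was that of Acp5, with the DMM library of M04 on top and the other 3 close together.

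Both fusion proteins were counted at a few CPM. Ocstamp, a membrane protein needed for precursors to fuse, had 2.37 CPM (sham) and 4.21 CPM (DMM) in M04, and 3.46 and 3.37 CPM in M05, with 32 to 63 counts behind each value. Dcstamp, its partner in fusion, had 2.89 CPM (sham) and 3.48 CPM (DMM) in M04, and 2.11 and 3.94 CPM in M05. Dcstamp was thus higher in both DMM libraries than in either sham library, while for Ocstamp the groups overlapped. The log2 fold changes were 0.39 (SE 0.46, interval -0.52 to 1.30) for Ocstamp and 0.58 (SE 0.48, interval -0.37 to 1.53) for Dcstamp. With 36 to 52 counts per library for Dcstamp, the interval runs from 0.775-fold to 2.88-fold.

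The receptors Oscar and Calcr were among the genes with few counts. Oscar, an immunoglobulin-like receptor that binds exposed collagen and gives a co-stimulating signal, had 3.11 and 3.14 CPM in the sham and DMM libraries of M04 and 4.52 and 3.61 CPM in those of M05. Its log2 fold change was -0.16 (SE 0.45, interval -1.03 to 0.72). Calcr, the calcitonin receptor of mature osteoclasts, had 6 and 3 counts in the sham and DMM libraries of M04 and 7 and 14 counts in those of M05. The ratio of DMM to sham was 0.451 in M04, with a 95% counting interval of 0.0730 to 2.11, and 2.80 in M05, with an interval of 1.06 to 8.20. The 2 ratios thus lay on opposite sides of 1, from 3 to 14 counts per library, and Calcr was not tested for a change.

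Nfatc1, the transcription factor at the head of the osteoclast programme, which endothelium and lymphocytes also express, had ratios on opposite sides of 1 in the mice. Its level was 54.1 CPM in the sham and 47.0 CPM in the DMM knee of M04, and 32.9 and 37.8 CPM in M05. The log2 fold change was -0.01 (SE 0.17), with an interval of 0.792-fold to 1.25-fold for the mean of the 2 mice. The levels of M04 were above those of M05 in both knees.

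The RANK system showed a low ligand and a more abundant decoy. Tnfrsf11a, which encodes the receptor RANK, had 2.59 and 2.67 CPM in the sham and DMM libraries of M04 and 1.70 and 1.72 CPM in those of M05, so that the values of the knees of a mouse were close. Its log2 fold change was 0.03 (SE 0.58), with an interval of -1.10 to 1.16 from only 21 to 40 counts per library. Tnfsf11, which encodes RANKL, had 10 counts (0.741 CPM) in the sham and 4 counts (0.267 CPM) in the DMM library of M04. In M05 it had 32 counts (1.88 CPM) in the sham and 20 counts (1.64 CPM) in the DMM library. The DMM value was the lower of the pair in both mice, and both values of M05 lay above both of M04. Its log2 fold change was -0.67 (SE 0.81, interval -2.26 to 0.91, edgeR adjusted p = 1.0). Tnfrsf11b, which encodes osteoprotegerin, was at 4.37 CPM (sham) and 7.09 CPM (DMM) in M04, and at 4.46 and 5.26 CPM in M05. Both DMM libraries were thus above both sham libraries, and the sham libraries were close to each other. The log2 fold change was 0.47 (SE 0.37, interval -0.26 to 1.20, edgeR adjusted p = 1.0).

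Dcstamp and Tnfrsf11b were 2 of the 9 tested members with both DMM libraries above both sham libraries, a pattern held by 13.2% of all genes tested, and 0 of the 9 had both below. A count of 2 among 9 genes is too small to read against that background.

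The ratio of RANKL to osteoprotegerin, often read as the balance between drive and brake, was lower in the DMM knee in each mouse. In M04 there were 0.170 Tnfsf11 counts per Tnfrsf11b count in the sham library (95% interval 0.0773 to 0.334) and 0.0377 in the DMM library (0.0101 to 0.0995). In M05 the ratio was 0.421 (0.270 to 0.644) in the sham and 0.313 (0.179 to 0.523) in the DMM library. The ratio of the DMM to the sham knee was 0.223 in M04 and 0.742 in M05, and 0.232 and 0.766 from FPKM. The intervals of the 2 knees, exact Clopper-Pearson bounds that cover counting error only, overlapped in each mouse. Such overlap is no test of the difference between the knees. An interval for the DMM to sham value of this ratio was not computed. As a fold, the sham libraries of the 2 mice differed in this ratio by more than the knees of M05 did and by less than the knees of M04 did. As a difference, the sham libraries lay further apart than the knees of either mouse. Per length, osteoprotegerin exceeded RANKL in every library, by 4.51 and 19.4 times in the sham and DMM libraries of M04 and by 1.85 and 2.41 times in those of M05.

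**Figure D2:**
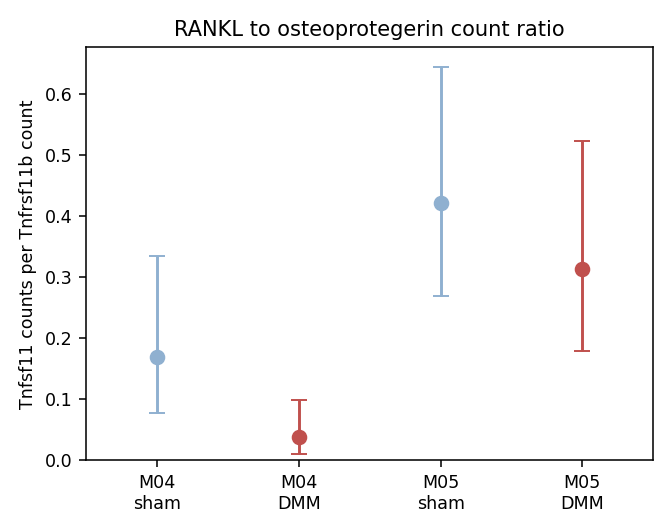
Tnfsf11 (RANKL) counts per Tnfrsf11b (osteoprotegerin) count in each library, with exact 95% intervals for counting error. The ratio lay at 0.170 and 0.0377 in the sham and DMM libraries of M04 and at 0.421 and 0.313 in those of M05. The intervals of the 2 knees of a mouse overlap, which is no test of their difference.

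The 2 mice shared the side of 1 on which the DMM to sham ratio lay for 4 of the 10 genes. The ratio was above 1 in both for 3 genes (Dcstamp, Tnfrsf11a and Tnfrsf11b), below 1 in both for Tnfsf11, and on opposite sides of 1 for 6. Among those 6, Acp5, Ocstamp, Atp6v0d2 and Oscar were above 1 in M04 and below 1 in M05, while Calcr and Nfatc1 were the reverse. Several ratios lay close to 1, with counting intervals that included it. They were 1.01 for Oscar in M04, and 0.974, 0.973 and 0.978 for Acp5, Ocstamp and Atp6v0d2 in M05. Those of Tnfrsf11a were 1.03 in M04 and 1.01 in M05. The sides of such ratios are not told apart by these counts, and the split was not counted over all genes. Against counting error alone, the ratio stood apart from 1 for 5 genes in M04: Acp5 (1.46, interval 1.41 to 1.52), Ocstamp (1.78, 1.14 to 2.81), Atp6v0d2 (1.35, 1.15 to 1.59), Tnfrsf11b (1.62, 1.17 to 2.27) and Nfatc1 (0.868, 0.782 to 0.964). In M05 it did so for 3 genes, namely Dcstamp (1.87, 1.19 to 2.96), Calcr and Nfatc1 (1.15, 1.01 to 1.30). Such an interval excluded 1 for 36.8% of all genes tested in M04 and for 43.1% in M05, so that these counts of members are too small to be read as a result. The intervals compare single libraries and hold no spread between animals. A difference between the responses of 2 mice could not be tested, since both terms of the model leave only 1 residual degree of freedom.

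**Figure D3:**
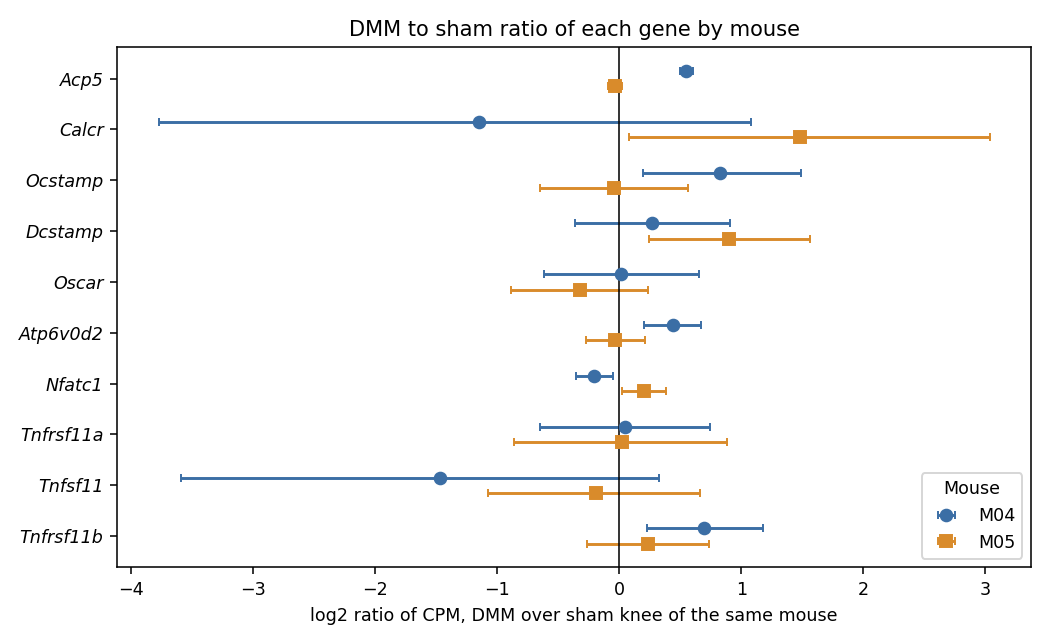
Log2 ratio of CPM, DMM over sham knee, for each gene in M04 (blue circles) and M05 (orange squares), with exact 95% intervals for counting error. Acp5, Ocstamp and Atp6v0d2 lie above 0 in M04 and close to 0 in M05, and Nfatc1 lies below 0 in M04 and above 0 in M05.

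Markers of other cells were summed beside Acp5. In M04, where Acp5 was higher in the DMM knee, the 11 osteoblast and osteocyte markers summed to 6084 CPM in the sham and 6781 CPM in the DMM library, and the 8 skeletal muscle markers to 147.6 and 392 CPM. In M05, where Acp5 was level, the osteoblast sums were 4811 and 5537 CPM and the muscle sums 523 and 158.9 CPM. The osteoblast sums were thus higher in the DMM knee of both mice. Most of each sum was Col1a1, the chain of type I collagen, with 4992 and 5340 CPM in M04 and 3473 and 4067 CPM in M05. Over the 11 osteoblast markers the median log2 ratio of DMM to sham was 0.33 in M04 and 0.03 in M05. At an adjusted p under 0.05 in edgeR, 2 of 11 osteoblast markers were higher in DMM knees, Alpl and Ibsp. So were 6 of 10 chondrocyte markers, against 0.649% of all genes tested called in either direction. DESeq2 called 13 genes in all and limma on FPKM called 1. The log2 ratio of Ibsp was 0.8498 in M04 and 0.2781 in M05 (edgeR adjusted p = 0.04855). The median log2 ratio of the chondrocyte markers was 0.3334 in M04 and 1.498 in M05. The macrophage markers summed to 4418 and 4439 CPM in M04 and 5795 and 5090 CPM in M05, and of their 11 tested members 0 passed (1 at an unadjusted p under 0.05, Cd163, at -0.44). The part of these cells in the values of Acp5 was not tested.

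Between the animals, 0 of the 9 tested members differed past an adjusted p of 0.05 in edgeR, against 2.60% of all genes tested, and 2 had an unadjusted p under 0.05, against 14.3% of all genes tested. DESeq2 called 0 members (1 at an unadjusted p under 0.05) and limma on FPKM 0 (2 at an unadjusted p under 0.05). Nfatc1 had a log2 difference of -0.52, M05 minus M04 (SE 0.17, edgeR adjusted p = 0.0704), with 54.1 and 47.0 CPM in M04 against 32.9 and 37.8 CPM in M05. It passed in 2 alternatives, at an adjusted p of 0.0463 when genes under a mean of 5 CPM were left out and of 0.00679 with scaling by total count only, a scaling that moved the median difference of all genes by -0.24. The log2 difference of Tnfsf11 was 1.87 (SE 0.82, interval 0.27 to 3.48, edgeR adjusted p = 0.234). Of the 10 chondrocyte markers, 8 were lower in M05 in edgeR, with a median log2 difference of -1.03 over the list. Their sums were 4857 and 5696 CPM in the sham and DMM libraries of M04. In M05 they were 1246 and 4209 CPM, so that the sham library was much the lower. Of 7 neutrophil markers, 2 were higher in M05, S100a8 at 0.95 and S100a9 at 0.88, and the list summed to 37670 and 37780 CPM in M04 and to 63640 and 54260 CPM in M05. The part of these cells in the differences between the animals was not tested. The 2 libraries of M05 lay wholly above or below those of M04 for 4 of the 9 genes (Nfatc1, Oscar, Tnfrsf11a and Tnfsf11), while 45.3% of all genes tested did so.

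Few genes of the wider pathway passed. Of 12 other genes of bone resorption, such as the proton pump subunit Tcirg1, the chloride exchanger Clcn7 and carbonic anhydrase II (Car2), 0 passed in edgeR and 2 had an unadjusted p under 0.05, with a median log2 fold change of 0.09 against -0.01 over all genes. These were Ctsk and Siglec15. Ctsk, the collagen-cleaving cathepsin K of osteoclasts, was at 200.4 and 294 CPM in the sham and DMM knees of M04 and at 246 and 308 CPM in those of M05. Both DMM libraries of Ctsk were above both sham libraries, unlike those of Acp5, at a log2 fold change of 0.44 (SE 0.15, edgeR adjusted p = 0.324). Siglec15, a sialic acid receptor of osteoclasts that signals through the adaptor Tyrobp, had 0.148 and 1.07 CPM in the knees of M04 and 0.352 and 0.985 CPM in those of M05. It stood at 2.02 (SE 1.01, edgeR adjusted p = 0.935), from 2 counts in its lowest library.

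Of the 17 subunits and accessory proteins of the V-ATPase, the general proton pump to which Atp6v0d2 belongs, 0 passed in edgeR and 0 had an unadjusted p under 0.05, and the median was 0.05. The smallest p-values were those of Atp6ap2 at -0.34 and Atp6v1a at 0.21. The ubiquitous counterpart of Atp6v0d2, Atp6v0d1, had 131.5 and 131.6 CPM in M04 and 136.2 and 168 CPM in M05.

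Of 24 genes that carry the RANK signal or its co-stimulation, 0 passed and 0 had an unadjusted p under 0.05, with a median of 0.01. The nearest were the kinase Btk at 0.23 and Traf3, a brake on the non-canonical NF-kB pathway, at -0.38. Tyrobp, the adaptor through which several osteoclast receptors signal, had 372 and 359.9 CPM in M04 and 462 and 442 CPM in M05. Its values differed more between the mice than between the knees.

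Among 11 genes of the M-CSF axis and of precursor identity, 0 passed in edgeR, 1 had an unadjusted p under 0.05, and the median was 0.00. That gene was Tfec, a relative of the osteoclast factor Mitf, at -0.84 (SE 0.26, edgeR adjusted p = 0.147), with 15.5 and 8.29 CPM in M04 and 13.9 and 8.13 CPM in M05. Tfeb, the lysosomal regulator of the same family, had 0.28. The receptor Csf1r, which precursors need to survive, had 216 and 227 CPM in M04 and 188 and 207 CPM in M05. Of 2 transcriptional repressors of osteoclast differentiation 0 passed in edgeR, with Irf8 at -0.10 and Bcl6 at 0.016 between the knees.

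Of 10 inducers of RANKL, 7 were tested, 1 passed in edgeR and 2 had an unadjusted p under 0.05, Pth1r and Ptgs2. The median was -0.02, and 0.649% of all genes tested passed. The gene that passed was Pth1r, the parathyroid hormone receptor of osteoblasts and prehypertrophic chondrocytes. It was at 97.5 CPM (sham) and 138.8 CPM (DMM) in M04 and at 63.6 and 105.1 CPM in M05, a log2 fold change of 0.62 (SE 0.15, edgeR adjusted p = 0.0172). The call was kept in 5 of 13 alternatives, with adjusted p-values from 0.0121 to 1.0. In fits of 3 libraries with no mouse term it was lost with the DMM library of M04 removed (0.39) and with either library of M05 removed (0.32 for sham, 0.78 for DMM). DESeq2 and limma on FPKM called 0 genes in each of the 6 pathway lists.

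**Figure D4:**
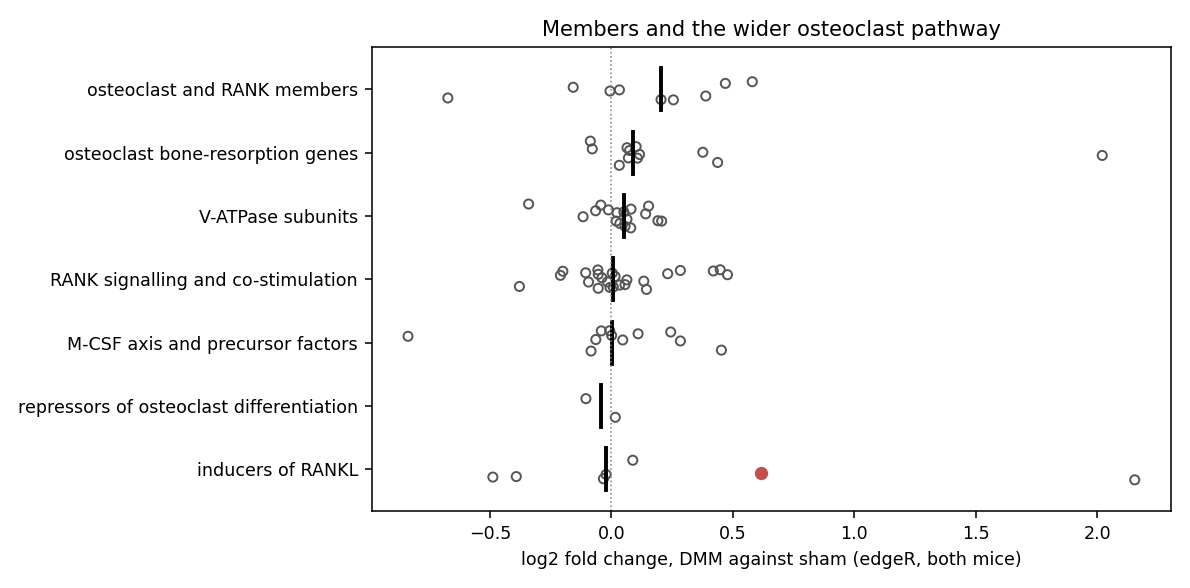
Log2 fold change of DMM against sham for the 9 tested members and for the tested genes of 6 pathway lists. Open circles did not pass an adjusted p of 0.05, the filled red circle (Pth1r, 0.62) did, and black bars are medians, which lie at 0.20 for the members and between -0.04 and 0.09 for the lists.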

How the data were processed

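Poly(A) RNA was sequenced as single-end reads of 100 bases, per the labels' protocols, from 4 knees of 2 mice. The authors deposited a table of estimated counts, not all of them whole numbers, and a table of FPKM for the same libraries. The build was GRCm39, per the submitters' processing notes. Which aligner and counter were used, and whether strand was kept, is not given in the sources here. Every library stands in 2 equal columns of the count table and was used once. Sample titles and treatment fields set the groups, although the descriptions of the sham samples name a DMM-operated knee. No other gene with counts overlapped a member in RefSeq's GRCm38.p6 annotation.

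Counts were rounded and fitted in edgeR 4.0.16 (R 4.3.3): filterByExpr, TMM, robust quasi-likelihood, with mouse and surgery as terms, and Benjamini-Hochberg adjustment over the 13103 genes tested. The block follows the labels, which assign both knees to one animal; deviations of same-mouse libraries correlated at 0.156. The fit leaves 1 residual degree of freedom. For 8 of the 9 tested members, and 83.0% of all genes, the prior degrees of freedom were infinite, so that the standard errors come from the trend across genes and not from the spread between the 2 mice. The script was tested on simulated counts that held no difference between mice, with changes set only in genes averaging at least 5 CPM. That run therefore does not test the fit under differences between mice or for genes with lower counts. Intervals are 95%, Poisson for levels and exact binomial for ratios of counts, and cover counting error only. FPKM values served for levels across genes and for limma 3.58.1. DESeq2 1.42.0 was an alternative.

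The members and the 15 gene lists (152 entries, 150 found) were chosen with earlier results of these data known, and 1 further gene of a pathway list is not reported here. The genes named from each of the 6 pathway lists are those past the threshold or, where none passed, the 2 with the smallest p-values; others are named as examples of a list. Likeness to Acp5 was the Euclidean distance of centred log2 CPM over the 4 libraries, for genes averaging 5 CPM or more.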

Additional observations from a re-analysis of the deposited data

How the results depend on the processing

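In DMM against sham, 0 members were called in any of the 13 alternatives. The count over all genes, 85, was 0 without the replicate block, 13 by DESeq2, 35 with RLE size factors, 53 by total count and 1 by limma with either FPKM pseudocount (0.1 or 1). Leaving out 1 library gave 0 to 121, and 0 members each time. For M05 against M04 the count of 341 became 72 (DESeq2), 186 (RLE), 912 (total count) and 0 (limma, both pseudocounts). The count of members there became 1 by total count and 1 with a mean of at least 5 CPM, Nfatc1 each time. Scaling by total count moved the median of all genes by 0.11 for surgery and -0.24 for the mouse. It turned Ocstamp between mice to -0.14, and Nfatc1 and Irf8 between knees to 0.11 and 0.0089. With limma, Nfatc1 stood at 0.0020 (pseudocount 0.1) and Tnfrsf11a at -0.021 and -0.0095 (0.1 and 1). Leaving out 1 library turned the sign of 5 named genes, with ranges of -0.35 to 0.37 for Nfatc1, -0.30 to 0.38 for Tnfrsf11a, -2.27 to 0.33 for Tnfsf11, -0.42 to 0.11 for Oscar and -0.11 to 0.15 for Bcl6. The ranges kept their sign for Ocstamp (0.13 to 0.68), Dcstamp (0.36 to 0.81) and Tnfrsf11b (0.26 to 0.68). The cause was not tested. With 3 libraries the mouse term had to be dropped. Low counts limit Calcr, Tnfsf11 and Tnfrsf11a most.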

Other observations

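In the pathway lists, 3 genes with low counts, chosen after their values were seen, had higher values in the DMM knee of both mice, and none was called by edgeR. Il11, a cytokine that raises RANKL in stromal cells, had 0 and 7.05 counts in the sham and DMM libraries of M04 and 0.150 and 8.40 counts in those of M05. With counts rounded to whole numbers, the counting interval of its ratio began at 1.30 in M04 and at 2.39 in M05, with no upper bound. Ptgs2, the inducible cyclooxygenase, had 2 and 17 counts in M04, a ratio of 7.67 (counting interval 1.82 to 68.5), and 5 and 11 counts in M05, a ratio of 3.08 (0.987 to 11.3). The ratios of Siglec15 were 7.22 (1.70 to 64.7) and 2.80 (0.973 to 9.09). Il11 had too few counts to be tested, and edgeR's adjusted p was 0.878 for Ptgs2. By CPM, other low-count genes of the lists went both ways. Tnf and Lif were lower in the DMM knee of both mice, and Lgr4 and Prdm1 were higher. The 3 genes were picked for their values, so their intervals are no test of a change.

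Of 9452 genes averaging 5 CPM or more, the 5 whose levels over the 4 libraries lay nearest to those of Acp5 were Plxdc1, Colec12, Smad5, Mdk and Tnfaip1, at distances of 0.0428 to 0.0692 on the log2 scale. With so many genes and 4 libraries, near neighbours are to be found for any gene.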
